A study of Mus musculus with 2 samples.

Results

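Cxcl12, Cxcl13, Cxcl14, Cxcl16 and Cx3cl1 are 5 chemokine genes, described here under the working name of homeostatic chemokines of stroma. They were chosen by symbol, and they are 5 of the 27998 gene IDs counted in each library. The study profiled single cells of mouse lung 7 days after Labelling-4T1 breast cancer cells had been injected into a vein. Cells labelled CD45-, which leaves out most blood-derived cells, were taken by flow sorting into a Cherry_Positive and a Cherry_Negative library, 1 library of each. Labelling-4T1 cells are known for releasing a lipid-permeable mCherry that neighbouring cells take up, so that the red signal marks cells close to tumour cells. Both groups come from injected mice, the sorting gates, the strain and the number of mice are not given in the labels, and no library of an uninjected lung was used here. With 1 library per group there is no test and no p-value, and each difference below is a difference between these 2 libraries.

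Chemokines are small secreted or membrane-bound proteins that direct cell migration through receptors on the responding cell. CXCL12 acts through CXCR4 and is bound and removed by ACKR3; CXCL13 draws B cells through CXCR5 and is a product of lymphoid follicle stroma; CXCL14 is made constitutively in many epithelia and fibroblasts. CXCL16 and CX3CL1 are made as transmembrane proteins with a mucin-like stalk, act through CXCR6 and CX3CR1, and are released by the proteases ADAM10 and ADAM17.

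After filtering, 1766 Cherry_Positive and 2804 Cherry_Negative cells were kept, with a median of 4348 and 3000.5 unique molecular identifiers (UMIs, each standing for 1 captured RNA molecule). The 13 barcodes that occur in both libraries may be shared cells. Each class ratio of a member that was recomputed without them stayed inside its counting interval. Ratios within clusters were not recomputed without them. Cells were grouped into 23 clusters, with all chemokine genes left out of the genes used for clustering, and clusters were named from marker genes. Every name is therefore a likeness (alveolar fibroblast-like and so on), and the suffix is left out below. Only 6 classes reached 50 cells on both sides: alveolar fibroblasts (862 Cherry_Positive and 468 Cherry_Negative cells), adventitial fibroblasts (123 and 113), myofibroblasts (245 and 134), pericytes (64 and 51), general capillary cells (120 and 903) and Car4 capillary cells (81 and 305). In each of these classes all markers of its own list were detected in both libraries.

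Levels are given as UMIs of the gene per 1000000 UMIs of the class (CPM), with an exact Poisson 95% interval that covers counting error only. In the Cherry_Negative library Cxcl12 was highest in arterial cells, at 1357 CPM (1250-1471) in 143 cells. Adventitial fibroblasts came next there, at 569.8 CPM (508-637). In the Cherry_Positive library adventitial fibroblasts held 745 CPM (687-806). Arterial cells of that library held 864 CPM (645-1132.5), from 52 UMIs in only 16 cells. These intervals overlap, so the order of both classes is not settled there. Below both classes in the Cherry_Negative library, alveolar fibroblasts at 190.3 CPM and general capillary cells at 184 CPM did not differ beyond counting error. Car4 capillary cells, the other alveolar capillary type, held 14.6 CPM in Cherry_Negative and 10.2 CPM in Cherry_Positive cells, close to the 9.43 CPM of Cherry_Negative AT2 cells, the surfactant-making epithelium. Cxcl12 thus differed strongly among endothelial classes, with arterial cells far above both capillary classes and venous cells at 10.6 CPM in the Cherry_Negative library.

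Cxcl14 was highest in alveolar fibroblasts in both libraries. Its level there was 1099 CPM in Cherry_Positive and 387 CPM in Cherry_Negative cells. In the Cherry_Negative library adventitial fibroblasts followed at 311 CPM and pericytes at 106 CPM. In the Cherry_Positive library immune cells came second at 515 CPM, with 86 of their 91 UMIs in 1 cell, before adventitial fibroblasts at 368 CPM. Pericytes at 251 CPM and keratin-high epithelial cells at 248 CPM followed there and did not differ beyond counting error. Endothelial classes and AT2 cells stood at 27.7 CPM or less in both libraries. Cxcl13 had no UMI in AT2, Car4 capillary, arterial or venous cells of either library. The largest of these groups, 448 Cherry_Negative AT2 cells, allows at most 0.808 CPM. In the Cherry_Negative library adventitial fibroblasts at 54.6 CPM and pericytes at 45.4 CPM did not differ in Cxcl13 beyond counting error, and all 30 adventitial UMIs came from 1 cell.

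The membrane-bound chemokines had other sources. Cxcl16 was broad: in the Cherry_Negative library it was highest in AT1 cells, the flat gas-exchange epithelium, at 357 CPM (281-446), and in immune cells at 283 CPM, which did not differ beyond counting error. The AT1 UMIs were spread over 35 of 57 cells, whereas 5 of the 30 immune cells held 95.1% of the immune UMIs. Car4 capillary cells at 182 CPM and arterial cells at 175 CPM came next, and alveolar fibroblasts were lower at 68.6 CPM. Among Cherry_Positive classes with 30 or more cells, the order ran from myofibroblasts at 212 CPM and alveolar fibroblasts at 208 CPM to keratin-high epithelial cells at 39.7 CPM, and no neighbours in that order differed beyond counting error. Cx3cl1 was highest in Car4 capillary cells, with 125 CPM (104-150) in Cherry_Negative and 95.6 CPM (63.5-138) in Cherry_Positive cells. Arterial cells held 50.5 CPM and general capillary cells 43.3 CPM of Cx3cl1 in the Cherry_Negative library. Alveolar fibroblasts had 6 Cx3cl1 UMIs in 862 Cherry_Positive cells and 5 in 468 Cherry_Negative cells.

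**Figure D1:**
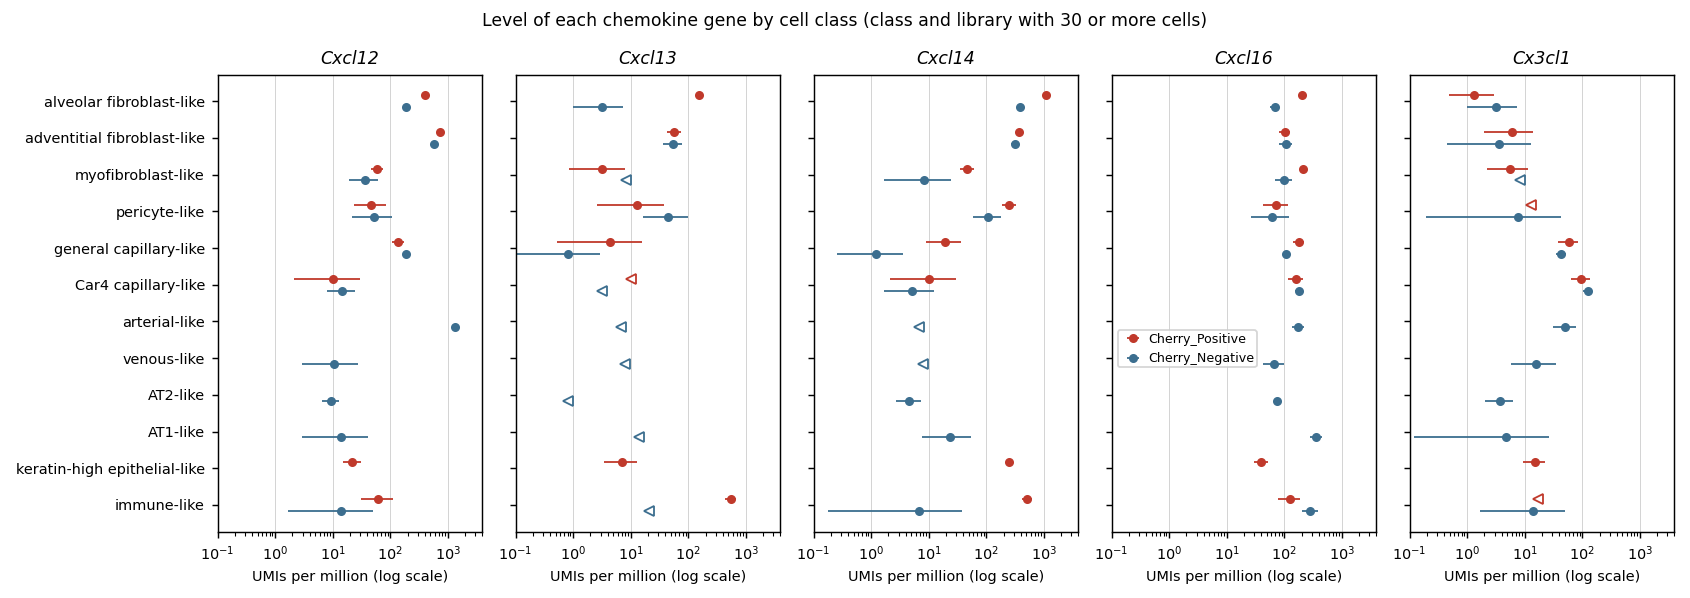
Level of each of the 5 genes in CPM (log axis) in each cell class with 30 or more cells in the library; points are the 2 libraries, bars are exact Poisson 95% intervals, and open triangles mark 0 UMIs at the level that 3 UMIs would give. Cxcl14 peaks in alveolar fibroblasts (1099 and 387 CPM), Cx3cl1 in Car4 capillary cells (95.6 and 125 CPM), and Cxcl13 spans 154 against 3.12 CPM in alveolar fibroblasts.

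Measured against these sources, the name of stromal chemokines held for part of the group. Mesenchymal classes (fibroblasts, myofibroblasts, pericytes, smooth muscle and mesothelium) held 92.1% of Cxcl14 UMIs in the Cherry_Positive library against 96.2% in the other, and 87.6% and 95.3% of Cxcl13 UMIs. For Cxcl12 they held 93.8% in the Cherry_Positive library but 38.0% in the Cherry_Negative library, where endothelium held 59.7%. For Cxcl16 the mesenchymal share was 84.0% against 18.7%, with 46.3% of Cherry_Negative UMIs in endothelium and 31.5% in epithelium. Endothelium held 59.6% and 87.8% of Cx3cl1 UMIs, so the name does not describe Cx3cl1 in either library. These shares move with the sorted cell mix, in which alveolar fibroblasts were 48.8% of Cherry_Positive and 16.7% of Cherry_Negative cells, and the comparisons that follow are therefore made within a class.

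Alveolar fibroblasts, the lipid-handling fibroblasts of the alveolar wall, had the most members apart between the libraries. All 4 members with at least 30 UMIs, Cxcl12, Cxcl13, Cxcl14 and Cxcl16, were at least 2-fold higher in the Cherry_Positive cells, where 5.98% of the 9638 genes with that many UMIs were at least 2-fold higher and 6.87% at least 2-fold lower. Cxcl12 was 403 CPM in Cherry_Positive and 190.3 CPM in Cherry_Negative cells, a ratio of 2.12 (exact binomial 95% interval 1.88-2.40, counting error only). Cxcl14 stood at 1099 against 387 CPM, a ratio of 2.84 (2.61-3.09). Cxcl16 stood at 208 against 68.6 CPM, a ratio of 3.03 (2.48-3.73). Cxcl13 stood at 154 against 3.12 CPM, from 698 and 5 UMIs, a ratio of 49.4 (21.1-153). The median log2 ratio of the 4 members was 1.55, beside -0.08 over all genes. The summed level of the 8 alveolar fibroblast markers was itself lower in the Cherry_Positive cells, at 6204 against 17486 CPM, with all 8 detected in both libraries. Its part in the chemokine ratios was not tested.

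The 5 alveolar fibroblast clusters were unevenly filled, and different clusters held most of the class in the 2 libraries. Cherry_Negative cells lay mainly in a cluster led by Slc7a10 and Tcf21, the latter a transcription factor of lung lipofibroblasts (115 Cherry_Positive and 321 Cherry_Negative cells). Cherry_Positive cells lay mainly in a cluster led by Tfpi2 and the matrix gene Tnc (339 and 40 cells) and in a cluster led by Fam26f and the interferon-induced chemokine Cxcl10 (253 and 5 cells). A cluster led by Rbp4 and Tnfsf13b held 153 and 85 cells. The name rests on weak marker levels in the clusters that hold most Cherry_Positive cells. On a scale where 1 is the cluster with the highest level of a marker, the mean over the alveolar fibroblast list was 1 in the Slc7a10 cluster but 0.317 in the Tfpi2 cluster, under its 0.651 for the Schwann cell list, and 0.198 in the Fam26f cluster, beside 0.208 for the platelet list. Neither of these 2 clusters had an alveolar fibroblast marker among its 10 leading genes. The Rbp4 cluster lies between 2 fibroblast types, with 0.343 for the alveolar and 0.329 for the adventitial list. The Fam26f cluster cannot be compared, since its 5 Cherry_Negative cells held no Cxcl12, Cxcl13 or Cxcl14 UMI.

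Cxcl14 was among the 10 leading genes of the Tfpi2 cluster and Cxcl13 among those of the Rbp4 cluster, although neither was used for clustering, so levels between clusters are descriptions. Within clusters the 4 genes parted. Cxcl12 was higher in Cherry_Positive cells in each of the other 3 large clusters, at 114 against 35.0 CPM in the Slc7a10 cluster (ratio 3.25, 2.07-5.14), 342 against 170 CPM in the Tfpi2 cluster (2.01, 1.31-3.23) and 935 against 628 CPM in the Rbp4 cluster (1.49, 1.29-1.73). The spread of Cxcl12 between clusters was wider than that between libraries, and the Rbp4 cluster was the highest in both. Cxcl14 was not higher in Cherry_Positive cells of the Slc7a10 cluster, at 241 against 303 CPM (0.794, 0.631-0.992). It was higher in the Tfpi2 cluster, at 1238 against 309 CPM (4, 2.93-5.62), and in the Rbp4 cluster, at 1466 against 696 CPM (2.11, 1.84-2.42). Cxcl16 intervals held 1 in all 3 clusters, with ratios of 0.706 (0.347-1.34), 1.69 (0.949-3.30) and 1.21 (0.863-1.71). The Cherry_Positive cells of the Fam26f cluster held the most Cxcl16, at 347 CPM (318-378). Leaving that cluster out took the class ratio of Cxcl16 to 2.02. Equal weights for the 3 clusters compared above, with the Fam26f cluster and the smallest cluster left out, took it to 1.30. The same equal weights took the Cxcl12 ratio to 1.67, and leaving out the Rbp4 cluster took it to 5.29. The size of both class ratios therefore depends on the cluster mix.

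**Figure D2:**
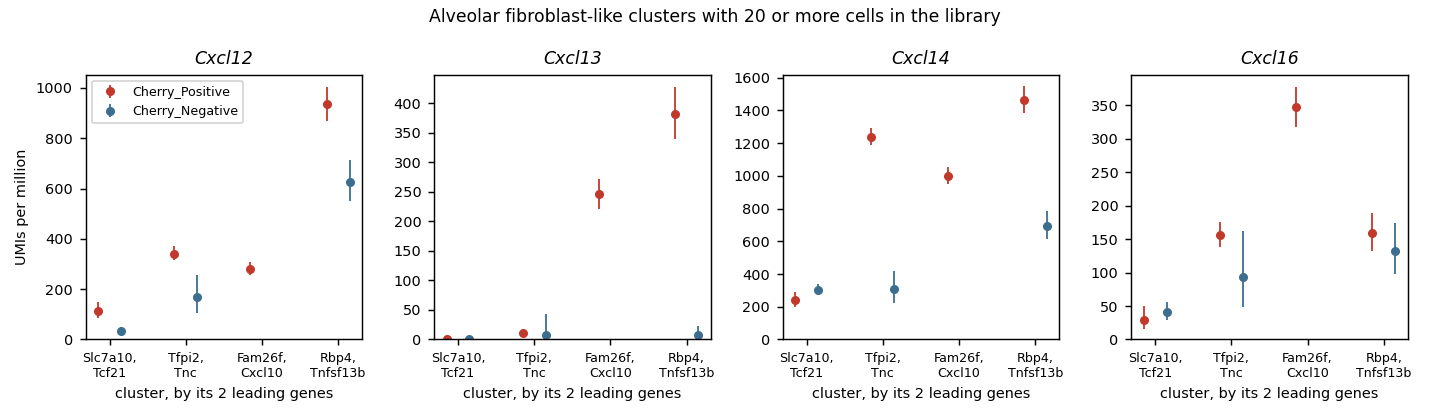
Level in CPM (linear axis from 0) of Cxcl12, Cxcl13, Cxcl14 and Cxcl16 in the 4 alveolar fibroblast clusters, named by leading genes, where the library has 20 or more cells in the cluster; points are the 2 libraries and bars exact Poisson 95% intervals. Cxcl12 is lowest in the Slc7a10 cluster (114 and 35.0 CPM) and highest in the Rbp4 cluster (935 and 628 CPM), whereas Cxcl16 is highest in the Cherry_Positive Fam26f cluster (347 CPM).

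Cxcl13 was carried by few cells. In the Cherry_Positive library 58 of 862 alveolar fibroblasts had any Cxcl13 UMI, and the top 3 cells, with 210, 111 and 101 UMIs, held more than 50% of the 698. The top cell held 30.1% and the top 5 cells 74.9%. The 2 clusters with most Cxcl13 were the Rbp4 cluster, at 382 CPM, and the Fam26f cluster, at 245.5 CPM. In the Rbp4 cluster 210 of the 305 UMIs lay in 1 cell. The Tfpi2 cluster held 11.4 CPM and the Slc7a10 cluster no UMI in 115 cells. Between the libraries the Rbp4 cluster had a Cxcl13 ratio of 48.3 (16.4-235), from 305 and 3 UMIs. The Tfpi2 cluster had 1.48 (0.236-61.2), from 20 and 1 UMIs, an interval that held 1. The Slc7a10 cluster had 0 and 1 UMIs. Leaving out the top cell of each library gave a class ratio of 57.4, because the Cherry_Negative level of 5 UMIs then fell to 3. The other genes were spread more widely: 37 cells held 50% of Cherry_Positive Cxcl14 UMIs, 93 cells those of Cxcl12 and 89 cells those of Cxcl16. Because so few cells decide it, the level of Cxcl13 in this class has a larger uncertainty than its counting interval shows.

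**Figure D3:**
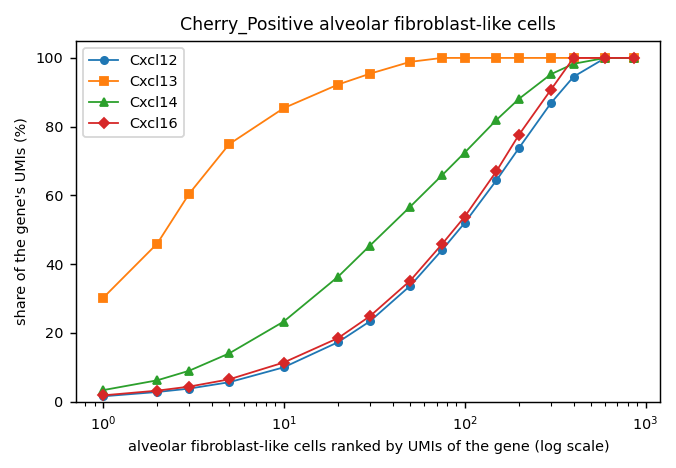
Share of a gene's UMIs (percent) held by the top-ranked cells (log axis) among the 862 Cherry_Positive alveolar fibroblasts, for Cxcl12, Cxcl13, Cxcl14 and Cxcl16. The 5 highest cells hold 74.9% of Cxcl13 UMIs, 14.0% of Cxcl14, 6.48% of Cxcl16 and 5.64% of Cxcl12.

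Shares of cells were compared after thinning each cell to 2000 UMIs, which left out 18 Cherry_Positive and 62 Cherry_Negative alveolar fibroblasts below that depth. Cxcl12 was then detected in 40.5% (exact binomial interval 37.2-43.9) of Cherry_Positive and 17.2% (13.7-21.3) of Cherry_Negative alveolar fibroblasts, and unthinned in 58.0% and 22.9%. Cxcl14 was detected in 43.6% (40.2-47.0) and 34.0% (29.4-38.8), unthinned 56.3% and 40.0%. Cxcl16 was detected in 27.5% and 12.1%, unthinned 44.9% and 19.2%, and Cxcl13 in 4.74% and 0.493%, unthinned 6.73% and 0.855%. As a reference for free RNA, Cherry_Negative AT2 cells (median 8154 UMIs) showed Cxcl12 in 1.35%, Cxcl14 in 0.673% and Cxcl13 in 0 of 446 cells, which allows a share of up to 0.673%. That reference holds for the Cherry_Negative library only. Unthinned, Cxcl12 was in 9.09% and Cxcl14 in 13.6% of the 22 Cherry_Positive AT2 cells, against 3.125% and 3.125% of the 448 Cherry_Negative ones. The part of free RNA in the Cherry_Positive shares was not tested. Unthinned median depths of the alveolar fibroblasts were 4478.5 and 3127.5 UMIs. By level, the 3.12 CPM of Cxcl13 in Cherry_Negative alveolar fibroblasts (1.01-7.28, 5 UMIs in 4 cells) lies above the 0.808 CPM that the AT2 cells allow, whereas the thinned share, from 2 of 406 cells, does not. Whether these 5 UMIs come from the cells or from free RNA cannot be told at this depth, and the ratio of 49.4 rests on them.

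The 250 bases before the RefSeq start are shown for 3 of the 4 members that were at least 2-fold higher in Cherry_Positive alveolar fibroblasts. They let the letters of the promoters be compared (build GRCm38.p6, given 5′ to 3′ on the gene's strand, with motif matches in capitals). Shared regulation of these genes was not tested. Cxcl12 lies at chr6:117168535-117181367 on the plus strand and its upstream window at chr6:117168285-117168534. Cxcl13 lies at chr5:95956951-95961068 on the plus strand with its window at chr5:95956689-95956938, and Cxcl14 at chr13:56288643-56296551 on the minus strand with its window at chr13:56296552-56296801.
Cxcl12: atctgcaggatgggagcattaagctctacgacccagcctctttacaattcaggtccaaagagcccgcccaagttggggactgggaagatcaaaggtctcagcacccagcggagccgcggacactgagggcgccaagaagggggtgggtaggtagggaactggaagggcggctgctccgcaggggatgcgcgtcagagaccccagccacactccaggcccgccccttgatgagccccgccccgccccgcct
Cxcl13: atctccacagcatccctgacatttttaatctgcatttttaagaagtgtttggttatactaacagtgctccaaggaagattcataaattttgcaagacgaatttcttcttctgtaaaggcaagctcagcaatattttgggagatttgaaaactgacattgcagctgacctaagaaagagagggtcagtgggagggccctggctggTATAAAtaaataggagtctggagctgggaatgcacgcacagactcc
Cxcl14: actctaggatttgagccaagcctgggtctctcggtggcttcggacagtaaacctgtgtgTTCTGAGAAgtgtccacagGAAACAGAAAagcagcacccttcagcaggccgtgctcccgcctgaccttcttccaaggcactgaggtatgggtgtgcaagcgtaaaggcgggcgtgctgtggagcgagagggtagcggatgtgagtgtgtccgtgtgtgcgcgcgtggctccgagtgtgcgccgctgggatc
The windows differ in base composition, with 64.4% G and C for Cxcl12, 42.0% for Cxcl13 and 59.6% for Cxcl14. The motifs searched on both strands were the NF-kB site, the gamma-activated site TTCNNNGAA, the interferon-stimulated response element core, the hypoxia element ACGTG and the TATA box TATAAA, which 3.90%, 7.02%, 2.98%, 16.6% and 12.4% of 32851 promoter windows of the same length hold. Cxcl12 had no match. Cxcl13 had a TATA box 46 to 41 bases before the RefSeq start. Its window ends at chr5:95956938, short of the gene start as positioned here, 95956951, so the distance to that start is larger. Cxcl14 had a gamma-activated site 191 to 183 bases before the start, read on both strands because the motif is a palindrome, and a response element on the opposite strand 172 to 163 bases before it, with no overlap between them. A match is a description of letters and not of a bound site. Of the other members, Cx3cl1 (chr8:94772009-94782427, plus strand) had the letters TATAAA 6 to 1 bases before its RefSeq start. Its window, chr8:94771930-94772179, runs past the start of the gene as positioned here, and the match lies inside the gene. Cxcl16 lies at chr11:70453983-70459984 on the minus strand. Cxcl16 overlaps 552 bases of Zmynd15 on the other strand, a gene with 24 Cherry_Positive and 5 Cherry_Negative UMIs in alveolar fibroblasts against 941 and 110 for Cxcl16.

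In adventitial fibroblasts, the fibroblasts of vessel and airway cuffs, none of the 4 members with at least 30 UMIs was 2-fold apart, where 3.17% of 5139 genes were at least 2-fold higher in Cherry_Positive cells and 3.21% lower. Cxcl12 was 745 against 569.8 CPM, a ratio of 1.31 (1.14-1.5) that counting error alone does not span. Cxcl14 was 368 against 311 CPM (1.18, 0.978-1.44), but 1 cell held 159 of the 307 Cherry_Positive UMIs and the ratio without the top cell of each library was 0.786. Cxcl16 was 102 against 107 CPM (0.949), and Cxcl13 was 57.6 against 54.6 CPM (1.05), with 48 UMIs in 9 cells against 30 UMIs in 1 cell. This Cxcl13 ratio ran from 0.312 by the mean of each cell's CPM to 6.36 with finer clusters, past 2-fold either way, and cannot be read at this depth. The thinned share of cells with Cxcl12 was 50.4% and 48.6%, so that adventitial fibroblasts had the gene in about as many cells in both libraries. Unthinned, these shares were 69.1% and 62.8%.

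Myofibroblasts, contractile fibroblasts of the alveolar duct, had 2 of 3 members at least 2-fold higher in the Cherry_Positive library, where 6.6% of 5534 genes were and 5.82% were at least 2-fold lower. Cxcl16 was 212 against 99.2 CPM, a ratio of 2.13 (1.5-3.11), with 267 and 36 UMIs; by the mean of each cell's CPM it was 1.83, under 2-fold. It was detected, thinned, in 27.5% of Cherry_Positive and 17.2% of Cherry_Negative cells, and unthinned in 50.6% and 22.4%. Cxcl14 was low, at 46.8 against 8.27 CPM (5.66, 1.85-28.2), and its 3 Cherry_Negative UMIs came from 1 cell. Classes with little Cxcl14 were also higher in the Cherry_Positive library, at 27.7 against 4.58 CPM in AT2 cells (5 and 17 UMIs) and 19.4 against 1.24 CPM in general capillary cells (9 and 3 UMIs). The part of free RNA in the myofibroblast ratio was not tested. Cxcl12 was 58.7 against 35.8 CPM, and the interval of its ratio of 1.64 (0.902-3.22) held 1. That ratio went below 1 under 3 other ways of choosing the cells, the lowest being 0.565 with coarser clusters.

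In pericytes, the cells that wrap capillaries, Cxcl14 was the 1 member with at least 30 UMIs. It was 251 CPM in Cherry_Positive and 106 CPM in Cherry_Negative cells, a ratio of 2.37 (1.31-4.59) from 59 and 14 UMIs, where 7.19% of 2155 genes were at least 2-fold higher and 5.15% lower. The UMIs were spread over 30 of 64 Cherry_Positive and 8 of 51 Cherry_Negative cells. Thinned to 2000 UMIs, Cxcl14 was detected in 40.3% (28.1-53.6) of 62 Cherry_Positive cells and 7.41% (0.910-24.3) of the 27 Cherry_Negative cells that were deep enough. Unthinned, these shares were 46.9% and 15.7%.

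The endothelial classes showed no member 2-fold apart, 0 of 3 in general capillary cells and 0 of 2 in Car4 capillary cells. Of all genes, 2.56% of 7642 were at least 2-fold higher and 6.29% lower in Cherry_Positive general capillary cells, and 1.38% of 5205 higher and 3.61% lower in Car4 capillary cells. In general capillary cells Cxcl12 was lower in the Cherry_Positive library, at 138 against 184 CPM (0.749, 0.567-0.976). The Cherry_Negative cells of this class lay mostly in 1 cluster whose leading genes include the general capillary markers Gpihbp1, Aplnr, Plvap and Cd93. The arterial markers Hey1 and Sox17 are also among them. Within this cluster Cxcl12 was 95.6 against 209 CPM (0.458, 0.293-0.686). In the general capillary cluster led by Ubd and Ido1, both interferon-induced, it was 194 against 155 CPM (1.26, 0.728-2.17). The class ratio became 1.11 when chemokine genes were kept among the clustering genes, so this difference depends on which cells are counted as general capillary. The summed level of the 7 arterial markers in the class was 661 CPM in Cherry_Positive and 921 CPM in Cherry_Negative cells, and its part in the Cxcl12 difference was not tested.

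Cxcl16 went the other way in general capillary cells, at 179 CPM in Cherry_Positive and 108 CPM in Cherry_Negative cells (1.66, 1.28-2.13). Its thinned shares of cells were 27.8% and 17.1%, and the unthinned ones 40.0% and 22.0%. The cluster mix differed, with 36 of 120 Cherry_Positive but 67 of 903 Cherry_Negative cells in the Ubd and Ido1 cluster, where Cxcl16 was highest. Within that cluster Cxcl16 was 232 against 210.2 CPM (1.10, 0.683-1.78), and within the largest general capillary cluster 157 against 101 CPM (1.55, 1.08-2.17). In Car4 capillary cells Cxcl16 was 160.5 against 182 CPM (0.884, 0.626-1.23), and Cx3cl1 was 95.6 against 125 CPM (0.763, 0.487-1.16), both within counting error. Cx3cl1 in general capillary cells was 58.3 against 43.3 CPM (1.35, 0.847-2.07), also within counting error. Between clusters it was uneven, at 132 and 155 CPM in the Ubd and Ido1 cluster against 15.3 and 37.3 CPM in the largest general capillary cluster, so that within both clusters its ratio was under 1, at 0.85 (0.459-1.55) and 0.410 (0.109-1.09).

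**Figure D4:**
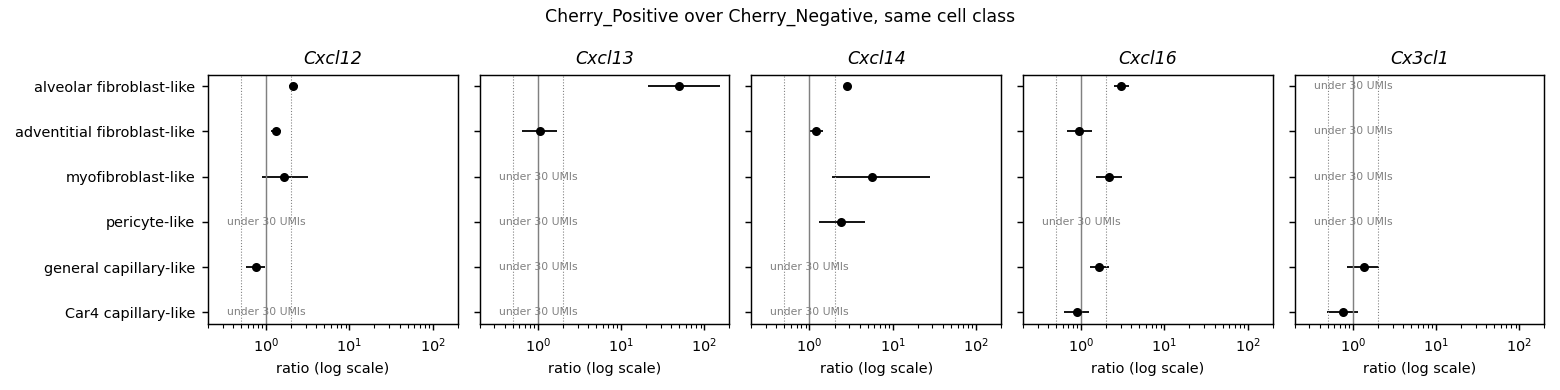
Ratio of the Cherry_Positive to the Cherry_Negative level (log axis) for each gene in the 6 compared classes; points are ratios of summed UMIs as CPM, bars exact binomial 95% intervals of counting error, the solid line marks 1 and the dotted lines 2-fold either way. Cxcl12 lies at 2.12 in alveolar fibroblasts, 1.31 in adventitial fibroblasts and 0.749 in general capillary cells, and Cxcl13 at 49.4 in alveolar fibroblasts; the Cxcl13 point of 1.05 in adventitial fibroblasts ran from 0.312 to 6.36 over other settings and is no measure of equal levels.

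High levels of Cxcl13 and Cxcl14 outside the stromal classes came mostly from a few cells that carried stromal markers. Cherry_Positive immune cells held 543.5 CPM of Cxcl13, of which 1 cell gave 94 of 96 UMIs. The same cell gave 86 of the 91 Cxcl14 UMIs, had alveolar fibroblast markers at 2142 CPM and had 1 UMI of Ptprc, the gene of CD45. The keratin-high epithelial class held 135 Cherry_Positive and 10 Cherry_Negative cells. Its leading genes were S100a4 and Spp1, followed by Ube2c and Birc5. Whether this class holds injected 4T1 cells was not tested. Its Cherry_Positive cells held 248 CPM of Cxcl14, from 350 UMIs. Of these, 331 lay in 7 cells that had no UMI of any of the 8 keratin-list markers and held the collagen genes Col1a1, Col1a2 and Col3a1 at a summed 7763 CPM. The 113 cells of the class without Cxcl14 held those collagens at 90.2 CPM, and 109 of them had a keratin-list UMI. Doublet calls were few, 4 and 7 cells, so cells of mixed content may remain.

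Within alveolar fibroblasts, Cxcl12 and Cxcl14 were often detected in the same cells. After thinning, Cxcl14 was found in 52.6% of Cherry_Positive cells with Cxcl12 and in 37.5% of those without, and in 51.4% and 30.4% in the Cherry_Negative library. Inside the Rbp4 cluster of the Cherry_Positive library the shares were 68.7% with and 75% without Cxcl12, so the co-detection was not seen within that cluster. It was seen in the Tfpi2 cluster of that library, at 50.4% with and 34.0% without, and in the Slc7a10 cluster of the Cherry_Negative library, at 53.3% (8 of 15 cells) and 29.2%. In the Cherry_Positive cells of the Slc7a10 and Fam26f clusters the shares were close, at 25% and 26.9% and at 40.7% and 39.2%. In adventitial fibroblasts the shares were 14.5% with and 18.0% without Cxcl12 in Cherry_Positive cells, and 5.66% and 21.4% in Cherry_Negative cells. Cxcl16 was found in 50% of the 40 Cherry_Positive alveolar fibroblasts with Cxcl13 and in 26.4% of those without. Inside the Fam26f cluster, where Cxcl16 was highest, these shares were closer, at 55% and 42.7%. They were 50% and 23.1% in the Tfpi2 cluster and 40% and 27.0% in the Rbp4 cluster. These rest on 11, 5 and 4 cells with both genes. These are shares of cells of 1 library each and are given as descriptions.

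Across the 19 units of class and library with 30 or more cells, the genes whose log2(CPM + 10) followed each member most closely among 10512 genes were listed by Pearson's r. The units share libraries and cell depth, and r is a description of them. For Cxcl12 they were Lrrc32 (0.84), Slit3 (0.77), Flrt2 (0.75), Hoxa3 (0.74) and Fbln2 (0.74). For Cxcl14 they were Lamb1 (0.89), Tfpi2 (0.88), C1s1 (0.88), Cyp7b1 (0.87) and Lpgat1 (0.86), of which Lamb1 encodes a laminin chain of basement membrane and C1s1 a complement protease. For Cxcl13 they were Mmp19 (0.82), Pla2g15 (0.81), Cxcl14 (0.78), Rab32 (0.78) and Sh3pxd2b (0.76), and 4 of these peak in the Cherry_Positive immune unit whose Cxcl13 comes from 1 cell. Cxcl16 had Tmem160 (0.77), Rufy1 (0.76), Spata13 (0.76), Bmp2k (0.73) and Rbms2 (0.73). Cx3cl1 had the closest companions, Stab1 (0.95), Pllp (0.93), Rasal2 (0.93), Fkbp1a (0.93) and Tmcc2 (0.93), and each of the 5 peaked in Car4 capillary cells.

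Of the receptors of these chemokines, those of CXCL12 were measurable in several classes and the others hardly at all. Ackr3, the scavenging receptor of CXCL12, was highest in venous cells, at 679 CPM (598-767) in Cherry_Negative cells, and stood at 192 and 131 CPM in adventitial fibroblasts, which thus held both Cxcl12 and Ackr3. Cxcr4, its signalling receptor, was highest in arterial cells, at 294 CPM (245-350) in Cherry_Negative cells, the class with the highest Cxcl12 in that library. In general capillary cells Cxcr4 was 34.6 against 68.1 CPM (0.508, 0.283-0.849). Cxcr5, Cxcr6 and Cx3cr1 had 1, 1 and 34 UMIs in all Cherry_Positive cells and 5, 4 and 12 in all Cherry_Negative cells, so the receptors of CXCL13, CXCL16 and CX3CL1 could not be compared, and none of the 5 receptors reached 30 UMIs in alveolar fibroblasts.

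Of the other pathway lists in alveolar fibroblasts, read beside the 5.98% of genes at least 2-fold higher and 6.87% lower, 0 of 4 shedding and trimming proteases were past 2-fold either way. Adam10, which releases CXCL16 and CX3CL1, was 27.8 against 30.6 CPM (0.911, 0.650-1.29), and Adam17 was 35.1 against 34.3 CPM (1.02, 0.749-1.42). Of 12 genes for the heparan sulphate chains that hold chemokines at cell surfaces, 5 were at least 2-fold higher and none lower, with a median log2 ratio of 0.63. They were the core proteins Sdc1, Sdc3, Sdc4 and Gpc4 and the sulphotransferase Hs6st1, and Sdc4 was the most counted, at 488 against 205 CPM (2.38, 2.12-2.69). Hs6st1, from 52 and 9 UMIs, had an interval that held 1 (2.05, 0.999-4.72). The basement membrane proteoglycan gene Hspg2 was 46.8 against 36.8 CPM and Gpc3 was 246 against 374 CPM, neither past 2-fold.

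Of 8 genes of lymphotoxin and alternative NF-kB signalling, which drives Cxcl13 in lymphoid stroma, 2 were at least 2-fold higher, Nfkb2 at 64.3 against 25.6 CPM (2.51, 1.81-3.58) and Relb at 76.9 against 34.9 CPM (2.20, 1.66-2.97). The receptor gene Ltbr was 88.2 against 63.6 CPM (1.39, 1.11-1.74). Of 6 lymphoid stroma genes, Pdpn at 101 against 24.3 CPM (4.14, 2.98-5.90) and Bst1, from 38 and 2 UMIs, were past 2-fold higher. The survival factors Il7 and Tnfsf13b, at ratios of 0.984 and 1.23, and the adhesion genes Icam1 and Vcam1, at 1.74 and 1.49, were not. All 10 measured inflammatory chemokines were at least 2-fold higher, with a median log2 ratio of 4.09 against 1.55 for the members, from Cxcl1 at 3.09 to Ccl5 at 111 (37.8-538). Of these, Cxcl10, Cxcl9, Ccl2 and Ccl7 are among the 10 leading genes of the Fam26f cluster, which held 253 Cherry_Positive and 5 Cherry_Negative cells. The part of the cluster mix in the ratios of this and the other gene lists was not tested. The counts for inflammatory chemokines were 7 of 7 in myofibroblasts, 8 of 9 in adventitial fibroblasts and 4 of 5 in pericytes, beside 2 of 3, 0 of 4 and 1 of 1 for the members. In the endothelium they were 3 of 5 in general capillary cells and 2 of 2 in Car4 capillary cells, beside 0 of 3 and 0 of 2.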

How the data were processed

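UMI counts per gene and cell were deposited by the authors as 1 matrix per library, per the labels from Chromium 3' libraries, with 10094853 UMIs over 1826 barcodes (Cherry_Positive) and 11632459 over 2861 (Cherry_Negative). Cell Ranger 2.1.1, Seurat 4.0.2, R 4.0.3 and mm10 are listed, with no role stated, in the submitters' processing notes; whether counting used strand is not given in the sources used here.

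Counts were read in Python 3.11.15 with scanpy 1.11.5, scipy 1.17.1 and numpy 2.4.6. Cells below 500 genes or above 10% mitochondrial UMIs (56 and 50) and Scrublet doublets (4, 0.226%, and 7, 0.249%, so few that doublets may remain) were left out. Cells were clustered by Leiden (leidenalg 0.10.2, resolution 1, 30 components, 15 neighbours, 2000 variable genes) with 46 chemokine IDs left out, and named from at least 3 detected markers. Club and ciliated cells were merged as airway epithelium, and all immune cells as 1 class, after the clusters were seen. UMIs were summed per class and library. Intervals are exact Poisson for levels and exact binomial for ratios and shares, at 95%, for counting error only. A gene counted as past the fold at 2-fold, if both libraries together held at least 30 of its UMIs; a count of 0 is given with the limit of 3 counts. The computation of ratios and of their intervals was tested on simulated sums of UMIs with known changes. Levels and counts past 2-fold were not tested in this way.

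Gene positions are from GENCODE M21 (GRCm38), and upstream sequences from RefSeq (GRCm38.p6), which held 4 of the 5 members. Of 65 list genes, Ccl19 (symbol shared by several IDs) and Cxcl11 were not used, and of 151 markers Trac was not used. The members, the 6 lists and the markers were chosen with earlier results of these data known. The genes named are the members, genes of those lists, and for each member the 5 genes most like it; genes that lead a cluster, Zmynd15, Ptprc and the collagen genes were named after their values were seen. Alternatives were other cell filters, cluster settings, free RNA subtraction, scaling, thinning and UMI minimums.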

Additional observations from a re-analysis of the deposited data

Results flagged for a closer look

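The Cxcl12 ratio of Cherry_Positive to Cherry_Negative went in opposite directions in different cell classes. It was 0.749 (0.567-0.976) in general capillary cells, against 2.12 (1.88-2.40) in alveolar fibroblasts and 1.31 (1.14-1.5) in adventitial fibroblasts. The intervals cover counting error only, and with 1 library per group the difference between the classes was not tested. The capillary value is the one that moved to the other side of 1, at 1.11, when chemokine genes were kept for clustering.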

How the results depend on the processing

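No ratio that was past 2-fold changed direction, and Cxcl16 in myofibroblasts was under 2-fold, at 1.83, by the mean of each cell's CPM. Cxcl13 in alveolar fibroblasts ran from 23.6 to 64.5 over 15 settings, each past 2-fold. These are ratios of the whole class. Of the Slc7a10, Tfpi2 and Rbp4 clusters, only the Rbp4 cluster had more Cxcl13 in Cherry_Positive cells beyond counting error. There 1 cell held 210 of the 305 UMIs. With finer clusters (resolution 2) the alveolar fibroblast ratios were 5.62 for Cxcl12, 3.52 for Cxcl14 and 4.38 for Cxcl16. Other settings there gave 2.79 (Cxcl12) and 2.52 (Cxcl14) for the mean of each cell's CPM, and for Cxcl14 3.12 with at least 1000 genes and at most 5% mitochondrial UMIs and 3.12 with TMM scaling, which shifted log2 ratios of this class by 0.14. Some alternatives were chosen after seeing the data. Without the Fam26f and Cxcl10 cluster the ratios were 2.41 for Cxcl12 and 2.02 for Cxcl16. Without the Rbp4 and C4b cluster they were 5.29, 3.50 and 4.45 for Cxcl12, Cxcl14 and Cxcl16. Equal weights for the Slc7a10, Tfpi2 and Rbp4 clusters alone gave 1.67, 2.25 and 1.30 for the same genes. This setting also left out the Fam26f cluster and the smallest cluster, and in it Cxcl12 and Cxcl16 were no longer past 2-fold. In general capillary cells Cxcl12 was 1.11 with chemokine genes kept for clustering, and with each library clustered by itself Cxcl16 was 1.27 and Cx3cl1 0.818. The cause of these moves was not tested beyond the change of cells each setting makes. Cxcl13 in adventitial fibroblasts ran from 0.312 to 6.36 and cannot be read at this depth.

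Genes past 2-fold in either direction numbered 1238 in alveolar fibroblasts, 328 in adventitial fibroblasts, 687 in myofibroblasts, 266 in pericytes, 677 in general capillary and 260 in Car4 capillary cells. With a minimum of 10 UMIs they were 1986, 1188, 1838, 1130, 1547 and 1046, and with 100 UMIs 611, 73, 182, 68, 158 and 19. Levels moved beyond their intervals in 3 of 28 cases with chemokine genes kept for clustering and in 2 without the cell filter; of 60 shares, 28 moved when thinned to 1000 UMIs and 23 unthinned. No paired analysis was possible because each group has 1 library and the groups share fewer than 2 replicate numbers.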

Other observations

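Some classes with under 50 cells in 1 or both libraries held levels that belong in no comparison above. Smooth muscle cells held 397 CPM of Cxcl12 (273-558) in 18 Cherry_Negative cells, between the alveolar and adventitial fibroblasts of that library. Mesothelial cells, the lining of the lung surface, held 193 CPM of Cxcl16 (115-305) and 150.3 CPM of Cxcl13 (82.2-252) in 11 Cherry_Positive cells, and no UMI of either gene in 12 Cherry_Negative cells, where 3 UMIs would give 44.7 CPM. Of the 14 mesothelial Cxcl13 UMIs, 13 came from 1 cell. AT1 cells held 583 CPM of Cxcl16 (346-922) in 5 Cherry_Positive cells, with 11 of 18 UMIs in 1 cell. Venous cells held 10.6 CPM of Cxcl12 and 679 CPM of its scavenging receptor gene Ackr3 in 87 Cherry_Negative cells. The intervals cover counting error only.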
